A study of Homo sapiens with 4 samples.

Results

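RB1, RBL1, RBL2, LIN9, LIN37, LIN52, LIN54, RBBP4, MYBL2 and FOXM1 encode the pocket proteins, the MuvB core and 2 activators that bind that core on cell cycle promoters. These 10 genes were found by matching their symbols in the GENCODE annotation to the Ensembl identifiers of the count table, out of 64252 genes in all, and all 10 were among the 18779 genes with enough counts to test. The RNA came from SK-N-BE(2), a line of human neuroblastoma cells, with scramble shRNA (sh-Scb, the control, 2 RNA-seq libraries) or with shRNA against SAPCD2 (sh-SAPCD2, 2 libraries). The study describes its knockdown cells as stable populations made with lentivirus and selected with puromycin. It does not say separately how the sequenced cells were made. If they were made in this way, the controls carried a vector and the drug selection too. SAPCD2 is the gene whose loss the study examined, and the comparison here asked how the RNA of this cell cycle machinery differed between the knockdown and the control cells.

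The pocket proteins RB (from RB1), p107 (from RBL1) and p130 (from RBL2) bind E2F transcription factors and hold their target genes down until cyclin-dependent kinases phosphorylate them. In resting cells p130 or p107, with E2F4 or E2F5 and a DP partner, joins the MuvB core of LIN9, LIN37, LIN52, LIN54 and RBBP4 to form the DREAM complex, a repressor of cell cycle genes. In dividing cells the same core leaves the pocket protein and binds B-MYB (from MYBL2) and later FOXM1, and then activates genes of G2 phase and mitosis. MYBL2, FOXM1 and RBL1 are themselves known targets of this switch, while RBL2 is best known for its control at the protein level.

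The known target status of several of these genes can be read against their promoters, taken from RefSeq (GRCh38.p14) as 250 bases before to 50 bases after each transcript start. A window was matched for 9 of the 10 genes, all but FOXM1. The E2F consensus, searched on both strands as TTTCCCGC, TTTCGCGC, TTTGCCGC or TTTGGCGC, was present in 2 of the 9, RBL1 and LIN52, and in 3.99% of 27305 genes (3.32% of 35116 windows of 300 bases). RBL1 held 2 such sites, 26 and 16 bases before the start, on the minus strand at chr20:37095998-37096117, shown with both sites in capitals because RBL1 was among the members with the larger changes.

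RBL1 promoter: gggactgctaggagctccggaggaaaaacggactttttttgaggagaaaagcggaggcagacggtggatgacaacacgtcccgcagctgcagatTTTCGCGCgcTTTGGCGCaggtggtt

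LIN52 held its site 25 bases before the start, in the plus-strand window chr14:74084706-74085005, and is shown as the other member with a match to the consensus, in different letters from those of RBL1. MYBL2, in the plus-strand window chr20:43666864-43667163, held no consensus site but had the shorter core letters GGCGGGA 39 bases before its start. These core letters, added after the data were seen, occurred in 7 of the 9 members and in 4906 of the 27305 genes, and in LIN52 they overlapped the consensus site on the other strand. The capitals mark the consensus in LIN52 and the core letters in MYBL2.

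LIN52 site: tggaacctcgtTTTCCCGCcgacggttggc

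MYBL2 site: ccgacgcgcttGGCGGGAgatagaaaagt

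The other letters searched were those of the cell cycle genes homology region (CHR, TTTGAA or TTCGAA), which LIN54 contacts in the DREAM complex, and the CCAAT box, which binds NF-Y. A CHR was present in RBL2, LIN9, LIN37 and LIN54, against 19.5% of all genes, and a CCAAT box in RBL2, LIN37, LIN52 and RBBP4, against 39.7%. The sequence searched per gene was unequal: RBL2, LIN37, LIN54 and RBBP4 had 2 windows each, LIN9 had 3 and LIN52 had 1. All 27305 genes had 35116 windows. The 2 LIN54 windows overlapped and held the same CHR. LIN54 is shown with its CHR in capitals because it encodes the subunit that reads these letters, in the minus-strand window chr4:83010774-83011073, 100 bases before the start. The matched RB1 window and the LIN54 window lay inside the annotated gene rather than at its 5′ end. So did both RBL2 windows, the LIN9 windows with a match and the LIN37 window with the CHR. Every CHR match in a member was thus in a window inside the gene. A match of letters is a description of the window and not a bound site.

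LIN54 site: gcccttgtgcgTTTGAAggttggcgggg

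The 4 libraries held 25347900 to 31850997 counts, so that 3 counts, taken as the smallest detectable amount, equaled 0.0942 to 0.118 CPM (counts divided by library size, after TMM scaling in edgeR); this limit covers counting error only. SAPCD2 itself was at 83.6 and 82.2 CPM in sh-Scb and at 35.4 and 52.5 CPM in sh-SAPCD2, a partial knockdown that left 42.7% and 63.3% of the control mean. All 13 adrenergic neuroblastoma markers examined were above the limit in all libraries, and their summed level was 6766 to 6922 CPM in sh-Scb and 8666 to 10622 CPM in sh-SAPCD2. Of markers of other cell types, Schwann cell markers summed to 2.54 to 3.91 CPM in sh-Scb and 5.02 to 7.29 CPM in sh-SAPCD2 with SOX10 and FOXD3 at 0, leukocyte markers to 9.01 to 9.74 and 11.1 to 13.0 CPM with CD3E, LYZ and HLA-DRA at 0, and fibroblast and mesenchymal markers to 354 to 374 and 406 to 436 CPM with PRRX1 at 0. Of these lists, 2 of 6, 1 of 6 and 6 of 8 genes were above the limit in all libraries, and the part of these cell types in the results was not tested. Since whole populations were sequenced, fewer cells in a cycle phase and less RNA per cell cannot be told apart.

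The sh-SAPCD2 libraries differed from each other with the GC content of the transcript, and most members showed this difference. The median log2 ratio of replicate 2 to replicate 1 was -0.21 in genes with transcripts under 45% GC, 0.02 between 45% and 55%, and 0.35 above 55%, while between the sh-Scb libraries these medians were 0.01, -0.01 and -0.01. The 7 members under 45% GC (RB1, RBL1, RBL2, LIN9, LIN52, LIN54 and RBBP4, at 37.1% to 43.1%) were all lower in sh-SAPCD2 replicate 2 than in replicate 1, with log2 ratios from -0.50 for RB1 and LIN54 to -0.22 for RBL2. LIN37 and MYBL2, at 59.1% and 60.5% GC, were higher in replicate 2, by 0.14 and 0.32, and FOXM1, at 55.7% GC, was nearly equal in both (0.01). Values corrected in edgeR for GC content and transcript length are therefore given beside each member.

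Of the 10 genes, 5 were lower in sh-SAPCD2 cells (RBL1, RBL2, RBBP4, MYBL2 and FOXM1) and 0 were higher, at a Benjamini-Hochberg adjusted p under 0.05 in edgeR's quasi-likelihood test, over all tested genes. Across all 18779 tested genes 12.5% were called lower and 12.4% higher. The adjusted p-values measure the spread between these libraries only, as the labels do not say that they came from separate cultures. RBL1 and MYBL2 also passed the fold threshold of the study, an absolute log2 fold change over 1, which 5.15% of all tested genes passed downward. RBL1 did not reach this fold after the GC and length correction (-0.94), without sh-Scb replicate 2 (-0.98) or without sh-SAPCD2 replicate 2 (-0.81), and MYBL2 did not without sh-SAPCD2 replicate 1 (-0.95). Over the 10 members the log2 fold changes had a median of -0.48, and over all tested genes one of 0.02. In 8 members both sh-SAPCD2 libraries lay below both sh-Scb libraries (33.4% of all genes), and in LIN37 and LIN52 both lay above (33.5%).

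**Figure D1:**
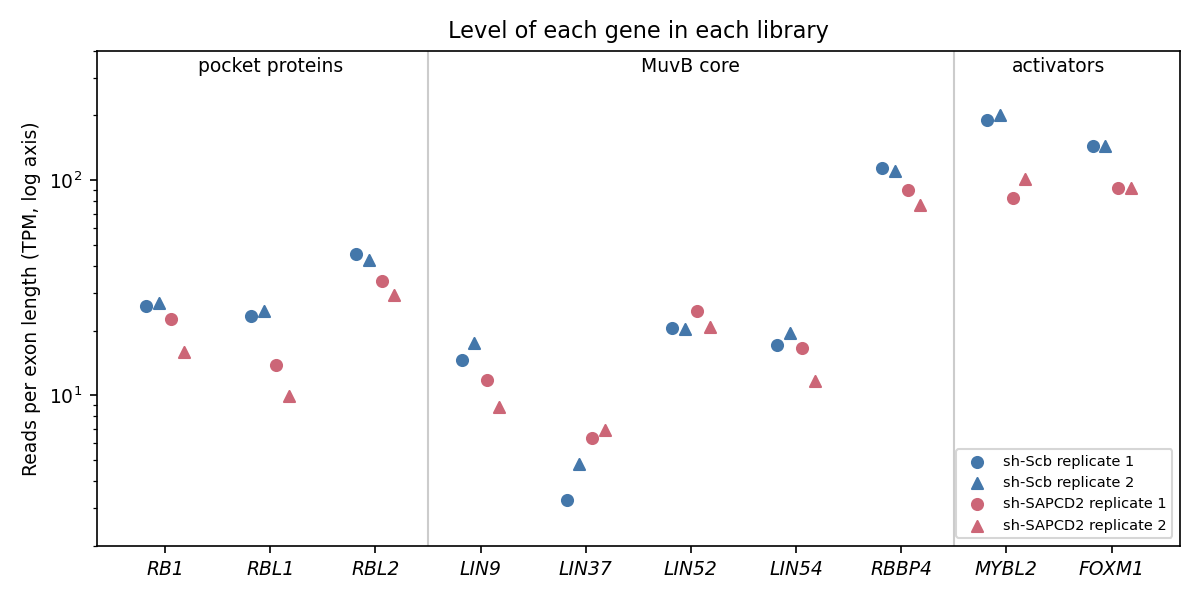
Level of each of the 10 genes in each of the 4 libraries, in TPM (a share of the library corrected for the length of the gene's exons) on a log axis, with 1 point per library and the groups in different colors. MYBL2 stands highest in sh-Scb, at a mean of 195.5 TPM, and LIN37 lowest, at 4.05 TPM, and in 8 genes both sh-SAPCD2 points lie below both sh-Scb points.

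Among the pocket proteins, RBL1 fell most and RBL2 fell less, while RB1 was lower in both knockdown libraries without passing the test. RBL1 (ENSG00000080839, hg38, chromosome 20, 36996349 to 37095997, minus strand, 22 exons), which encodes p107, was at 43.8 and 46.9 CPM in sh-Scb and at 25.8 and 18.6 CPM in sh-SAPCD2. Both knockdown libraries were far below both controls, with the lower value in replicate 2. The mean went from 45.3 ± 2.18 to 22.2 ± 5.12 CPM (SD, n = 2 each), 49.0% of the control, and the log2 fold change was -1.03 with an SE of 0.183 (95% interval -1.48 to -0.59, edgeR adjusted p = 0.0125). After the GC and length correction it was -0.94 (adjusted p 0.00104).

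RBL2 (ENSG00000103479, chromosome 16, 53433977 to 53491648, plus strand, 22 exons), which encodes p130, the pocket protein typical of DREAM in resting cells, was at 115.0 and 109.8 CPM in sh-Scb and at 86.5 and 74.4 CPM in sh-SAPCD2. The groups did not overlap, and the drop was smaller than the one in RBL1. The log2 fold change was -0.48 (SE 0.118, 95% interval -0.77 to -0.20, edgeR adjusted p = 0.0311), which left 71.6% of the control. With sh-Scb replicate 1 or 2 left out the fold change of RBL2 was -0.45 or -0.52 and was no longer called (edgeR adjusted p = 0.336 or 0.244), nor was it without the filter on low counts (-0.48, adjusted p 0.0832). The value corrected for GC and length was -0.41 (adjusted p 0.00281).

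RB1 (ENSG00000139687, chromosome 13, 48303744 to 48599436, plus strand, 27 exons), the retinoblastoma tumor suppressor, was at 52.6 and 55.1 CPM in sh-Scb and at 45.4 and 32.0 CPM in sh-SAPCD2. Replicate 1 of the knockdown lay close under the controls and replicate 2 well under them. The log2 fold change of -0.48 was the same as that of RBL2 to 2 decimals, with a wider error (SE 0.182, 95% interval -0.92 to -0.03, edgeR adjusted p = 0.107). Corrected for GC and length it was -0.39 with an adjusted p of 0.0233. Without sh-SAPCD2 replicate 1 it was -0.75 (edgeR adjusted p = 0.00185) and without sh-SAPCD2 replicate 2 it was -0.24 (adjusted p 0.0567).

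The ratio of RBL1 to RBL2, each taken per length (TPM, with the union of exons as length), was 0.518 and 0.582 in sh-Scb and 0.407 and 0.340 in sh-SAPCD2. That of RBL1 to RB1 was 0.900 and 0.919 in sh-Scb and 0.615 and 0.627 in sh-SAPCD2. In both ratios the groups did not overlap, so p107 RNA was a smaller part of the pocket protein RNA in the knockdown libraries. These ratios were not tested.

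The log2 fold changes of the MuvB core genes had both signs, and differences between these genes were not tested. RBBP4 fell, LIN9 and LIN54 were lower without passing the test, and LIN37 and LIN52 were higher without passing it. RBBP4 (ENSG00000162521, chromosome 1, 32651142 to 32686211, plus strand, 12 exons), a histone-binding WD-repeat protein, was at 339.8 and 332.0 CPM in sh-Scb and at 267.6 and 228.6 CPM in sh-SAPCD2. Its log2 fold change was -0.44 (SE 0.112, 95% interval -0.71 to -0.17, edgeR adjusted p = 0.0358). As for RBL2, the groups were apart. With sh-Scb replicate 1 or 2 left out the fold change was -0.42 or -0.45 (edgeR adjusted p = 0.353 or 0.306), and without the filter on low counts it was -0.44 (adjusted p 0.0908). After the GC and length correction it was -0.35 (adjusted p 0.00348).

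LIN9 (ENSG00000183814, chromosome 1, 226231149 to 226309869, minus strand, 15 exons), a subunit through which the core binds B-MYB, was at 20.4 and 24.7 CPM in sh-Scb and at 16.3 and 12.4 CPM in sh-SAPCD2. All knockdown values were below the controls, and the spread within each group was wide beside the gap between 16.3 and 20.4 CPM. The log2 fold change was -0.66 (SE 0.192, 95% interval -1.13 to -0.19) with an edgeR adjusted p of 0.0533, just outside the threshold. DESeq2 gave an adjusted p of 0.0227 for it, and 7 of the 12 alternatives called it. After the GC and length correction in edgeR it was -0.54 (adjusted p 0.0239), and without sh-SAPCD2 replicate 1 it was -0.87 (adjusted p 0.0113).

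LIN54 (ENSG00000189308, chromosome 4, 82909973 to 83012926, minus strand, 13 exons), the DNA-binding subunit, was at 36.2 and 41.8 CPM in sh-Scb and at 35.1 and 24.9 CPM in sh-SAPCD2. Knockdown replicate 1 was only slightly below control replicate 1. The log2 fold change was -0.38 (SE 0.194, 95% interval -0.85 to 0.09, edgeR adjusted p = 0.1997), so a change of either sign lies in the interval. Without sh-SAPCD2 replicate 1 it was -0.65 and called (edgeR adjusted p = 0.0122), and without sh-SAPCD2 replicate 2 or sh-Scb replicate 2 it was -0.15 or -0.27 and was not (adjusted p 0.376 and 0.656). The value corrected for GC and length was -0.30 (adjusted p 0.102).

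LIN37 (ENSG00000267796, chromosome 19, 35748361 to 35754519, plus strand, 9 exons), needed for DREAM to repress, was at 2.90 and 4.32 CPM in sh-Scb and at 5.57 and 6.15 CPM in sh-SAPCD2. It had 80, 119, 141 and 193 counts in these libraries and was the least abundant member. The knockdown libraries were above the controls, with a log2 fold change of 0.70 (SE 0.260, 95% interval 0.07 to 1.33, edgeR adjusted p = 0.0997). Corrected for GC and length it was 0.54 (adjusted p 0.134), and without sh-Scb replicate 1 it was 0.44 (adjusted p 0.540).

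LIN52 (ENSG00000205659, chromosome 14, 74084956 to 74201493, plus strand, 6 exons), the small subunit whose phosphorylation by DYRK1A lets DREAM assemble, was at 24.3 and 24.5 CPM in sh-Scb and at 29.2 and 24.7 CPM in sh-SAPCD2. Replicate 2 of the knockdown was level with the controls. The log2 fold change was 0.14 (SE 0.143, 95% interval -0.21 to 0.49, edgeR adjusted p = 0.505), and no alternative called it. After the GC and length correction it was 0.26 (adjusted p 0.0779), and without sh-SAPCD2 replicate 1 it was 0.01 (adjusted p 0.951). The ratio of LIN37 to LIN9 per length, chosen after the values were seen, was 0.224 and 0.276 in sh-Scb and 0.539 and 0.784 in sh-SAPCD2.

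Both activators fell. MYBL2 (ENSG00000101057, chromosome 20, 43667019 to 43716495, plus strand, 14 exons), which encodes B-MYB, was at 165.4 and 177.5 CPM in sh-Scb and at 71.4 and 88.9 CPM in sh-SAPCD2. The groups were far apart, and the knockdown libraries differed from each other in the direction opposite to most members. The mean went from 171.4 ± 8.58 to 80.2 ± 12.4 CPM (SD, n = 2 each), 46.8% of the control, and the log2 fold change was -1.10 (SE 0.135, 95% interval -1.42 to -0.77, edgeR adjusted p = 0.00498). The GC and length correction moved it to -1.29 (adjusted p 6.93e-05).

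FOXM1 (ENSG00000111206, chromosome 12, 2857680 to 2877174, minus strand, 9 exons), a forkhead factor for mitotic genes, was at 223.3 and 225.7 CPM in sh-Scb and at 141.1 and 142.2 CPM in sh-SAPCD2. The replicates lay close together in both groups and the groups were well apart. The mean went from 224.5 ± 1.68 to 141.6 ± 0.753 CPM, 63.1% of the control, and the log2 fold change was -0.66 (SE 0.0929, 95% interval -0.89 to -0.44, edgeR adjusted p = 0.00648). With sh-Scb replicate 1 or 2 left out the fold change stayed at -0.67 or -0.66 but was not called (edgeR adjusted p = 0.0868 or 0.0963). The value corrected for GC and length was -0.75 (adjusted p 0.000539). RBL1 and MYBL2 were the 2 members called under all 12 alternatives.

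**Figure D2:**
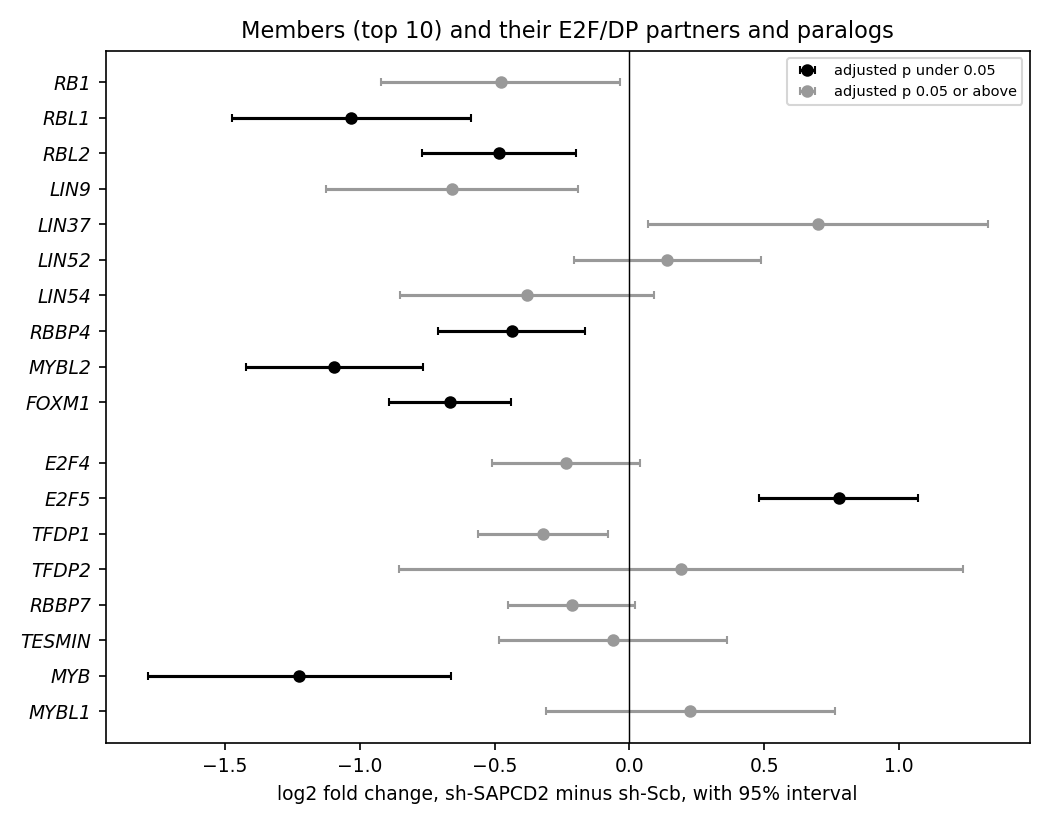
Log2 fold change of sh-SAPCD2 against sh-Scb with its 95% interval for the 10 members and, below the gap, 8 E2F/DP partners and paralogs, with filled black points for an adjusted p under 0.05 and gray points otherwise. MYBL2 at -1.10 and RBL1 at -1.03 lie farthest to the left among the members, and LIN37 at 0.70 lies on the right with an interval that nearly reaches 0.

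Per length, MYBL2 had the highest level of the 10 genes in sh-Scb, at 195.5 ± 7.73 TPM, followed by FOXM1 at 144.5 ± 0.44 and RBBP4 at 112.3 ± 3.03 TPM. RBL2 stood at 43.9 ± 1.92, RB1 at 26.5 ± 0.603, RBL1 at 24.1 ± 0.904, LIN52 at 20.4 ± 0.0934, LIN54 at 18.2 ± 1.68, LIN9 at 16.1 ± 2.01 and LIN37 at 4.05 ± 1.09 TPM. LIN54 and LIN9 overlapped between libraries, and the other neighbors in this order did not. In sh-SAPCD2 the leading genes drew together, with MYBL2 at 92.1 ± 13.7, FOXM1 at 91.9 ± 0.0557 and RBBP4 at 83.6 ± 9.80 TPM. The MYBL2 libraries overlapped with those of FOXM1 and RBBP4, while both FOXM1 libraries lay above both of RBBP4. RBL1, next below RB1 in sh-Scb, came below LIN54 in sh-SAPCD2, at 11.9 ± 2.81 TPM, and overlapped with LIN54 and LIN9 between libraries.

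The ratio of MYBL2 to FOXM1 per length was 1.31 and 1.39 in sh-Scb and 0.897 and 1.11 in sh-SAPCD2. It depends on the length used, being 0.973 and 1.03 in sh-Scb with the longest transcript of each gene. The order of the leading 2 genes in sh-Scb is thus not fixed by these data. The sh-SAPCD2 mean of the ratio was 0.741 of the sh-Scb mean. The length of each gene cancels in this value, so it is the same under any length. The difference between the groups in this ratio was not tested.

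Several members share their locus with genes on the opposite strand, and whether the counting used strand was not stated. RHNO1, which acts in the DNA damage response and starts head to head with FOXM1 without sharing exon sequence with it, was at 48.8 and 44.6 CPM in sh-Scb and at 11.7 and 10.4 CPM in sh-SAPCD2. It fell more than FOXM1 did, with a log2 fold change of -2.08 (SE 0.144, edgeR adjusted p = 0.00201). The ratio of RHNO1 to FOXM1 per length went from 0.407 and 0.367 to 0.155 and 0.136, so the genes that flank this shared start differed in size of change. ITFG2, on the 3′ side of FOXM1 with overlapping exons, had a log2 fold change of -0.43 (SE 0.125, edgeR adjusted p = 0.0503).

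AKTIP, whose exons overlap those of RBL2, went in the other direction. It was at 16.5 and 18.8 CPM in sh-Scb and at 29.0 and 26.9 CPM in sh-SAPCD2, a log2 fold change of 0.66 (SE 0.142, edgeR adjusted p = 0.0219). Reads of either gene in the shared stretch could have been counted for the other, and the part of this in the values of RBL2 was not tested. RCBTB2, which lies within the RB1 locus, fell from 4.78 and 5.27 CPM to 1.62 and 2.13 CPM (log2 fold change -1.41, SE 0.251, edgeR adjusted p = 0.0126), while LPAR6, in the same locus, had only 4 to 17 counts. THAP9, beside LIN54, had a log2 fold change of 0.01 (edgeR adjusted p = 0.990). RBBP4 has processed copies in the genome, of which RBBP4P1, named after its values were seen, had 119 to 188 counts and a log2 fold change of -0.55 (edgeR adjusted p = 0.0933), so RBBP4 and this copy may share reads.

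**Figure D3:**
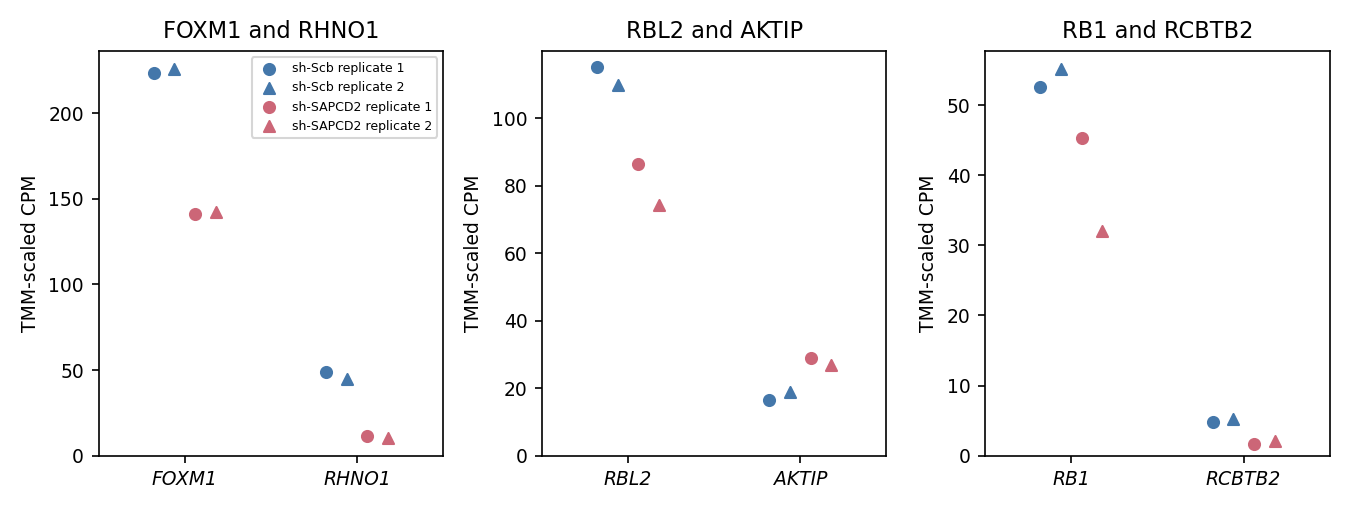
Level in TMM-scaled CPM of FOXM1, RBL2 and RB1 and of RHNO1, AKTIP and RCBTB2, which overlap them on the opposite strand, with 1 point per library. RHNO1 goes from 48.8 and 44.6 to 11.7 and 10.4 CPM beside FOXM1, and AKTIP goes up while RBL2 goes down.

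The E2F and DP partners of DREAM and the paralogs of the members were 8 genes, of which 1 fell and 1 rose, against 12.5% and 12.4% of all genes. E2F5, a repressor-type E2F that pairs with p130, was at 43.5 and 45.5 CPM in sh-Scb and at 81.3 and 71.1 CPM in sh-SAPCD2, with both knockdown libraries above the controls. Its log2 fold change was 0.78 (SE 0.121, edgeR adjusted p = 0.00879). E2F4, the other E2F of DREAM, was at 62.6 ± 2.01 CPM in sh-Scb and 53.1 ± 2.92 CPM in sh-SAPCD2 (log2 fold change -0.24, edgeR adjusted p = 0.176). The ratio of E2F5 to E2F4 per length was 0.408 and 0.446 in sh-Scb and 0.955 and 0.772 in sh-SAPCD2.

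MYB, the founding relative of MYBL2, fell from 11.3 ± 1.19 to 4.83 ± 1.21 CPM (log2 fold change -1.22, SE 0.231, edgeR adjusted p = 0.0151), and MYBL1 did not pass the test (0.23, adjusted p 0.488). RBBP7, the close paralog of RBBP4, had a log2 fold change of -0.21 (edgeR adjusted p = 0.157) and TESMIN, a relative of LIN54, one of -0.06 (adjusted p 0.822). TFDP1 had a log2 fold change of -0.32 (edgeR adjusted p = 0.0615). TFDP2 was at 53.7 CPM in control replicate 1 and 19.1 CPM in replicate 2, so its difference was not detectable.

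The kinases, cyclins, inhibitors and phosphatases that act on the pocket proteins and the core moved in both directions. Of 26 listed, 25 could be tested, and 9 were lower and 4 higher. These were 36% and 16%, against 12.5% and 12.4% of all tested genes. Together they were 13, against 24.8% of all tested genes called in either direction. CDK2, which phosphorylates pocket proteins with cyclins E and A, was at 72.0 and 70.8 CPM in sh-Scb and 25.8 CPM in both sh-SAPCD2 libraries (log2 fold change -1.47, SE 0.113, edgeR adjusted p = 0.00210). CCND1, cyclin D1, rose from 434.9 ± 7.92 to 758.8 ± 35.0 CPM (0.80, edgeR adjusted p = 0.00430). CCNF, the F-box cyclin, and PLK1, the mitotic kinase that acts on B-MYB and FOXM1, fell by 0.94 and 0.68 on the log2 scale (edgeR adjusted p = 0.00438 and 0.00861).

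Others of this list, named after their values were seen, were split between inhibitors. CDKN1A (p21) fell from 6.27 to 2.18 CPM (log2 fold change -1.51, edgeR adjusted p = 0.0227), while CDKN1B (p27) rose by 0.45 (adjusted p 0.0251) and CDKN1C (p57) by 1.10 (adjusted p 0.0475). CDK6 fell by 0.86 on the log2 scale (edgeR adjusted p = 0.0121). DYRK1B, the relative of the LIN52 kinase, rose by 0.72 (edgeR adjusted p = 0.0253), and DYRK1A itself had a log2 fold change of 0.28 (adjusted p 0.222).

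RBBP4 also serves in chromatin complexes other than MuvB, and of 24 genes of those complexes 6 fell and 2 rose, 25% and 8.33% against 12.5% and 12.4% of all genes. ASF1B and CHAF1B, histone chaperones of replicating chromatin, fell by 1.65 and 0.98 on the log2 scale (edgeR adjusted p = 0.00322 and 0.00587). CHD3, a remodeler of the NuRD complex, rose by 0.90 (edgeR adjusted p = 0.00415), and MTA3 of the same complex fell by 0.86 (adjusted p 0.00612). EZH2, the PRC2 methyltransferase, named after its values were seen, fell by 0.54 (edgeR adjusted p = 0.0143).

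Most genes of the lists of targets that these proteins regulate were lower in sh-SAPCD2 cells. Of 38 G1/S targets, the genes that pocket proteins and E2F hold, 34 fell and 0 rose, against 12.5% and 12.4% of all tested genes, with a median log2 fold change of -1.03. Of 53 G2/M targets, the genes of MuvB with B-MYB and FOXM1, 45 fell and 0 rose, against the same shares of all tested genes, with a median of -0.85. PRIM1, a primase subunit of the G1/S list, went from 48.7 ± 1.93 to 13.7 ± 1.35 CPM, and PTTG1, securin, of the G2/M list, from 94.4 ± 1.69 to 43.5 ± 0.901 CPM (log2 fold change -1.12, edgeR adjusted p = 0.00313). Both lists were compiled with earlier results of these libraries known, so their counts are a description. Some genes of these lists are also among the regulators or the other RBBP4 complexes and are counted there too. Repressor subunits and activators both lay among the genes that fell, and the RNA levels do not give the amount or the phosphorylation of any protein.

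**Figure D4:**
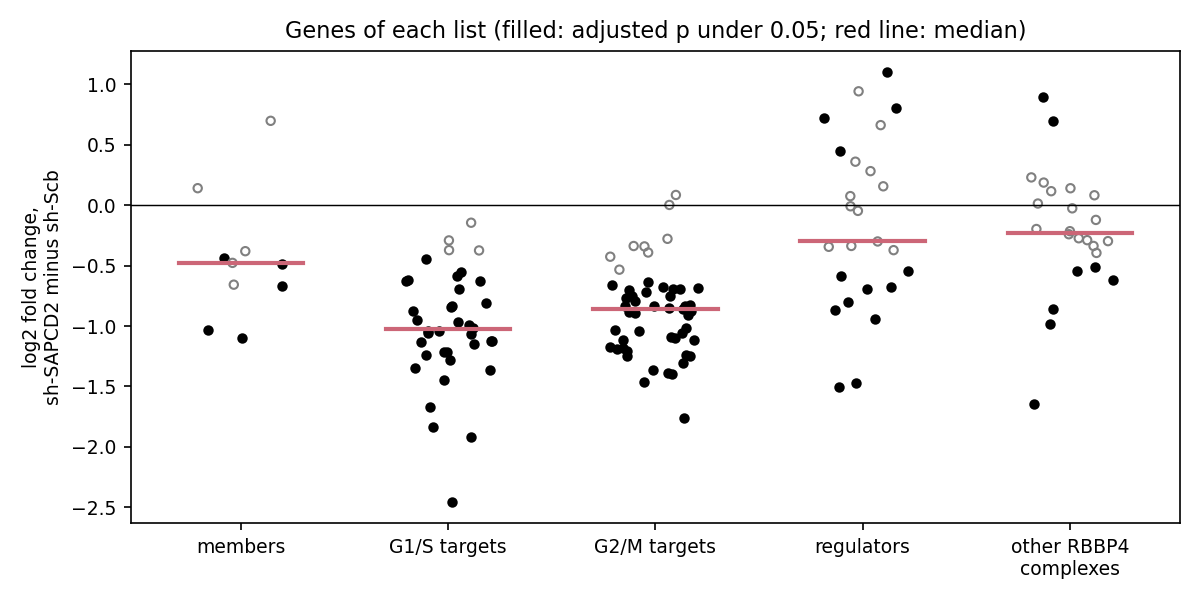
Log2 fold change of each tested gene in the members, the G1/S and G2/M targets, the regulators and the other RBBP4 complexes, with 1 point per gene, filled at an adjusted p under 0.05, and a red line at the list median. The G1/S targets have a median of -1.03 and the G2/M targets one of -0.85, below the -0.48 of the 10 members.

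The genes whose pattern over the 4 libraries was most like a member were found by the distance between centered log2 CPM values, over 10434 genes at a mean of at least 10 CPM. MYBL2 was nearest to TMEM8B and CARHSP1, at distances of 0.0539 and 0.0647, and 55 genes lay within 0.2 of it. RBL1 was nearest to SERTM2 and RPAP2, with 124 genes within 0.2, and FOXM1 to SET and TSHZ3, with 502. LIN37 had the fewest genes within 0.2, which were 4, with STX16-NPEPL1 nearest. Its own means of 3.61 CPM in sh-Scb and 5.86 CPM in sh-SAPCD2 lay below the 10 CPM asked of the genes compared. LIN52, with a log2 fold change of 0.14, had the most, at 1282. Such likeness describes these 4 libraries.

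Sequences complementary to shifted seeds of shRNA #1 against SAPCD2 (TCCACCT for the guide strand and AGAGGTC for the passenger strand, or the last 6 bases of either followed by A, chosen earlier on the fold changes of these data) were present in the 3′ UTRs of RBL1, LIN54 and RBBP4, 3 of the 10 members, and in 33.9% of 13584 tested genes with an annotated 3′ UTR. The plain seed match ACCTTCA was in none of the 10, against 12.5% of those genes. The labels do not name the shRNA, the study's figures name #1, and the part of these sites in the fold changes was not tested. The study also lists another shRNA against SAPCD2, whose sites were not searched.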

How the data were processed

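Gene expression was measured by RNA-seq in 2 sh-Scb and 2 sh-SAPCD2 libraries of SK-N-BE(2) cells, grouped by the condition in the labels. Paired-end reads of 150 bp had been mapped by the authors with HISAT2 2.2.0 (hg38) and quantified with StringTie 2.1.2, and the deposited values are whole-number counts per Ensembl gene, unscaled. Strandedness, Ensembl release and treatment of multi-mapped reads are not given in the sources used here.

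Counts were scaled by TMM and tested with the two-sided quasi-likelihood test of edgeR 4.0.16 (R 4.3.3) after filterByExpr (min.count 10, min.total.count 15), with Benjamini-Hochberg adjustment over 18779 genes. Totals were 25347900 to 31850997 counts, and the biological coefficient of variation was 15.4%. Log2 CPM used a prior count of 2. The replicates of each group differed by more than counting noise and were kept as separate samples. This difference was larger in sh-SAPCD2 (chi-square per degree of freedom 34.32) than in sh-Scb (4.195). Positions and lengths came from GENCODE 44, which matched 17467 tested genes, leaving 1312 without annotation. TPM used the union of exons. Promoter sequences came from RefSeq and were searched with Python 3.11.15.

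The members and lists were chosen with earlier results of these data known. Genes named were taken from the 10 members, SAPCD2, at most 4 genes with the smallest p in each other list, at most 2 genes nearest in pattern to a member, genes overlapping a member, markers at 0, and those said to be named after their values were seen. The 12 alternatives were a DESeq2 1.42.0 fit, edgeR with the size factors of DESeq2 or with plain library totals, no filter or one at a mean of 1 CPM, a block for the replicate number, a loess correction (span 0.3) for GC content and for length, block and correction together, and a fit without each library. Figures used matplotlib 3.10.9.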

Additional observations from a re-analysis of the deposited data

How the results depend on the processing

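No member changed direction under any of the 12 alternatives. Without the filter on low counts, 3 members were lower, 8 regulators and 1 of the partners and paralogs were called, and over all genes 1180 were lower and 1081 higher, against 2339 and 2326 with the filter. With the correction for GC content and length, alone or with the replicate block, 1 member (MYBL2) passed the fold threshold, 4 partners and paralogs were called, and all genes called lower and higher with the correction alone were 3524 and 3746. With each library left out in turn, 2 to 8 members were lower and 0 higher, 1 to 2 passed the fold threshold, 26 to 37 G1/S targets and 33 to 50 G2/M targets were lower, and 6 to 23 regulators, 1 to 6 partners and paralogs and 4 to 17 genes of other RBBP4 complexes were called, with 1146 to 4014 genes lower and 1176 to 4396 higher in all. In these fits the lone library of a group is assumed to vary like the other group. Of the members, 4 had the shorter E2F letters (TTCCCGC or TTGGCGC, both inside consensus sites) and 7 the core letters, against 2 with the consensus, and 2993 of 27305 genes had the shorter letters.

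The labels number the replicates but do not say that same-numbered libraries were made together. Their deviations from the group means correlated at -0.0188. With 2 libraries per group the deviations of replicate 2 mirror those of replicate 1, so this value cannot decide whether the numbers pair the libraries. With the replicate number as a block, 7 members were lower and 1 higher (LIN37, adjusted p 0.0465, edgeR), and 2701 genes were lower and 2860 higher in all.

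Depth limits LIN37 most, with 80 to 193 counts, and with 2 libraries per group the uncalled members RB1, LIN9 and LIN54 have intervals wide enough to hold changes of the size seen in called members.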
